A study of Oryza sativa Indica Group with 6 samples.

Results

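Tricellular pollen (TCP) was compared with bicellular pollen (BCP) in the rice male gametophyte, with the 2 TCP arrays set against the 2 BCP arrays, 4 of the 6 arrays of the study. These arrays were chosen by their labelled stage alone. The other 2 arrays carried RNA of uninucleate microspores (UNM). They entered the fit for the spread between replicates and are quoted as an earlier level. All 3 stages came from 1 variety of Oryza sativa Indica Group, Guichao No.2, grown in the field and sampled around midday in summer, with no mutant, transgene or treatment in any group. Each stage had 2 arrays that the labels call biological replicates. Whether a replicate was 1 plant or a pool, and how the stages were identified and the pollen purified, is not stated in the labels. The question was how transcript levels moved while sperm cells formed and the pollen matured.

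In BCP a generative cell lies inside a large vegetative cell. It divides by mitosis into sperm cells before the grain is shed in grasses, while the vegetative cell stores RNA, protein and starch for the pollen tube. The tube grows at its tip, where calcium signals, actin, vesicle delivery and wall synthesis act together. RNA of the whole grain was measured, so that the cells of a grain are not separated, and fewer cells of a type cannot be told apart from less RNA per cell.

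Values are signals on the log2 scale, where a step of 1 is a doubling. There is 1 value per probe set, a group of short probes for 1 transcript, and each gene is represented by 1 probe set. Values on the arrays are given in the order replicate 1 and replicate 2. A difference is the TCP mean minus the BCP mean with its standard error (SE), n = 2 arrays per stage. A gene is said to have risen or fallen where limma, a linear model that shares the spread over all probe sets, gave a Benjamini-Hochberg adjusted p under 0.05 over all 57194 probe sets and the difference was at least 1. With 2 arrays against 2, an exact permutation test of a single gene could not reach that threshold, so calls rest on this shared spread, whose median SE was 0.16. The background was the 95th percentile of 64 probe sets for reporter genes that rice does not carry. It lay at 5.22 and 5.0 in UNM, at 5.6 and 5.7 in BCP and at 5.72 and 5.84 in TCP. Where a gene lay under it at a stage, the size of its difference is limited by background and is not exact.

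More genes fell than rose. Of 17905 genes with a probe set, 1526 rose (8.52%) and 5120 fell (28.6%), and over probe sets 3400 rose (5.94%) and 7593 fell (13.3%). Rises were thus 30.9% of the called probe sets, against 52.5% when no minimum difference was required. This split moved with the scaling between arrays: rises were 45.6% after a repeated quantile normalisation, 44.9% after centring on the 75th percentile, 23.2% after centring on the median and 2.68% when the arrays were set equal on the hybridization controls, called the control scale below. The hybridization controls, bacterial transcripts added before hybridization, were higher on the TCP arrays by 1.23. The cre controls, with far stronger signals of 12.53 in BCP and 12.8 in TCP, were higher by 0.27. Over all probe sets the median difference was 0.14 in the deposited values and -1.09 on the control scale. A rise smaller than about 1.23 therefore has the opposite sign on the control scale, and groups are given on both scales where this matters. Of all 17905 genes 563 rose and 12117 fell on the control scale. The counts of a group on that scale are to be read beside these, not beside the shares in the deposited values. The repeated quantile normalisation, the centring on the 75th percentile and the centring on the median are called the 3 other scalings. Their counts are given, in this order, where one differs from the main count by over 1.5 times.

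Many changes took a gene across the background level. Of the 1526 genes that rose, 379 (24.8%) lay at or under the reporters on both BCP arrays and above them on both TCP arrays. Among the 5120 that fell, 1888 (36.9%) crossed the other way, from above on both BCP arrays to at or under on both TCP arrays. A further 940 rises and 2617 falls took place with the gene above the reporters on all 4 arrays. The median size of a called change was 1.76 for rises and 2.14 for falls, and 239 genes rose and 500 fell by more than 4.

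The UNM arrays show which of the crossing genes had been above the reporters before. Of the 1888 genes that crossed downward, 1711 (90.6%) were also above the reporters on both UNM arrays, against 93.1% of the 9889 genes that were above them on both BCP arrays. Of the 379 that crossed upward, 166 (43.8%) were above the reporters on both UNM arrays, 174 on neither and 39 on 1. The last group is to be read against the 7435 genes that lay at or under the reporters on both BCP arrays, of which 34.9% were above on both UNM arrays. The reporters lay lower on the UNM arrays, so that a gene counts as above them there at a lower signal than in BCP. Of the probe sets 38.6% and 42.3% were above them in UNM, and 31.7% and 30.4% in BCP. These shares are descriptions and were not tested.

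**Figure D1:**
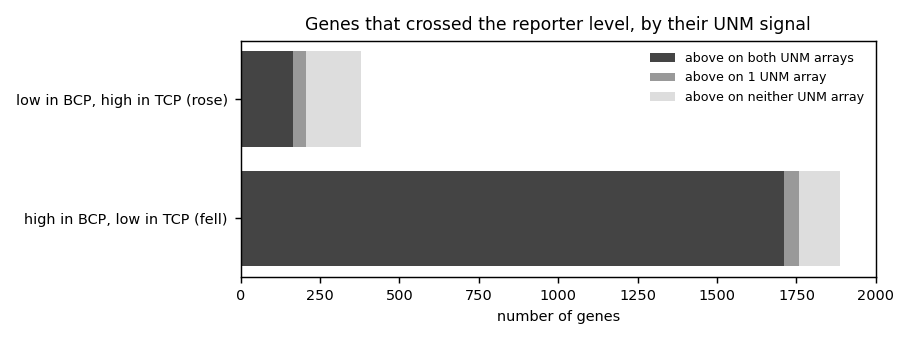
Numbers of genes that crossed the reporter level between BCP and TCP (x axis, number of genes), 1 bar for the 379 genes that rose across it and 1 for the 1888 that fell across it, divided by whether the gene was above that level on both, 1 or neither of the UNM arrays. Of the downward bar 1711 genes were above on both UNM arrays, of the upward bar 166.

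Among the 2446 genes with a name, 219 rose (8.95%) and 701 fell (28.7%), in all 920 (37.6%). The 25 largest changes in each direction are summarised here, with some of the genes named. The 25 largest rises ran from 4.69 to 7.83 with SEs between 0.12 and 0.22, and all their adjusted p-values by limma were between 4.29e-07 and 1.65e-06. In 18 of the 25 both BCP arrays lay at or under the reporters. On the UNM arrays 12 of the 25 were above the reporters on both and 11 on neither.

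Several of these genes belong to signalling. CPK21, a calcium-dependent protein kinase, was measured at 5.22 and 5.21 in BCP and 11.6 and 11.46 in TCP. On the UNM arrays it had stood at 8.6 and 8.75, so that BCP was the lowest of the 3 stages. OsPP2C78, a type 2C protein phosphatase, was at 4.94 and 4.49 in BCP and 10.94 and 10.9 in TCP. RSH2, of the enzymes that make the alarmone ppGpp, was at 4.78 and 4.89 in BCP and 10.16 and 10.05 in TCP. The rises of CPK21, OsPP2C78 and RSH2 were 6.32 (SE 0.13), 6.2 (SE 0.18) and 5.27 (SE 0.12).

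Wall and membrane synthesis was represented by CSLD5 and CSLC9, of the cellulose synthase-like families, GT43A, of a glycosyltransferase family of xylan synthesis, and MGD3, which makes the galactolipid MGDG. CSLD5 was measured at 4.49 and 4.69 in BCP and 10.33 and 10.33 in TCP, and at 2.99 and 2.98 on the UNM arrays. CSLC9 was at 7.26 and 6.9 in BCP and 12.23 and 12.23 in TCP, and MGD3 at 6.72 and 6.45 in BCP and 12.92 and 12.87 in TCP on a probe set shared with other transcripts. CSLD5 thus lay under the reporters at both earlier stages, while CSLC9 and MGD3 were already above them in BCP. The differences were 5.74 (SE 0.13) for CSLD5, 5.15 (SE 0.16) for CSLC9, 4.83 (SE 0.14) for GT43A and 6.31 (SE 0.15) for MGD3.

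Sugar and metal use were among the largest rises as well. SWEET5, of the sugar-exporting SWEET family, was at 6.64 and 6.21 in BCP and 12.77 and 12.64 in TCP. NIN3, a neutral invertase that splits sucrose, was at 7.93 and 7.6 in BCP and 12.46 and 12.46 in TCP, and COPT2 (gene 4338846), a copper transporter, at 6.83 and 6.66 in BCP and 11.81 and 11.86 in TCP. SWEET5, NIN3 and COPT2 were above the reporters on both BCP arrays, and their rises were 6.28 (SE 0.17), 4.69 (SE 0.15) and 5.09 (SE 0.15).

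Hormone and regulatory genes were also among the 25. GH3.2, of the enzymes that join auxin to amino acids, was at 4.85 and 5.01 in BCP and 11.05 and 11.13 in TCP, and ILL2, of the family that releases auxin from such conjugates, at 4.89 and 5.1 in BCP and 11.02 and 10.99 in TCP on a shared probe set. Both rose, by 6.16 (SE 0.22) and 6.01 (SE 0.13). The transcription factor gene SPL18 was at 4.41 and 4.29 in BCP and 10.52 and 10.54 in TCP, the zinc finger gene LOL3 at 4.89 and 4.7 in BCP and 10.81 and 10.89 in TCP and the MADS box gene MADS27 at 3.41 and 3.41 in BCP and 9.23 and 9.15 in TCP. SPL18 and MADS27 lay under the reporters on all 4 UNM and BCP arrays, whereas LOL3 had been at 7.81 and 7.76 on the UNM arrays. Another probe set of MADS27 did not give the same call. ML4, of the Mei2-like RNA-binding proteins, rose by 5.08 (SE 0.17), and the thioredoxin gene OsTrx20, with another probe set that did not give the same call, by 6.24 (SE 0.19).

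The 25 largest falls had differences from -5.2 to -7.42, with SEs between 0.12 and 0.25 and adjusted p-values by limma of at most 4.75e-06. The largest was that of ASA1, at 11.97 and 12.04 in BCP and 4.71 and 4.45 in TCP. In 21 of the 25 both TCP arrays lay at or under the reporters, and all 25 were above them on both UNM arrays. Folding in the endoplasmic reticulum (ER) was represented by PDI, a protein disulfide isomerase, PDIL2-3 of the same family, the calreticulin CRT1 and the ER-resident DnaJ protein DJB6. PDI was at 10.66 and 10.62 in BCP and 4.68 and 4.59 in TCP, and CRT1 at 12.45 and 12.51 in BCP and 6.42 and 6.63 in TCP. PDI had thus left the range above background, while CRT1 had not, and their differences were -6.01 (SE 0.12) and -5.96 (SE 0.13). PDIL2-3 and DJB6 fell as well, with differences of -5.92 and -5.38. The probe sets of CRT1 and PDIL2-3 are shared with other transcripts.

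Also among the 25 falls were RPN-II of the ER and 4 genes of protein synthesis, RPL9 with -6.72 on a shared probe set, RPS15 with -6.58, RPL5 and EF-1-beta. Organelle and metabolic genes were present too. TOC75, the import channel of the plastid envelope, was at 11.07 and 11.02 in BCP and 4.96 and 5.23 in TCP, and ACLA-2, a subunit of ATP-citrate lyase, which supplies acetyl-CoA, at 10.2 and 10.21 in BCP and 4.85 and 4.75 in TCP. AMPD, an AMP deaminase, was at 11.12 and 11.03 in BCP and 5.8 and 5.47 in TCP, and mGmk, a guanylate kinase of nucleotide supply, at 9.34 and 9.25 in BCP and 3.46 and 3.32 in TCP. Among these genes mGmk lay well under the reporters on both TCP arrays. The differences were -5.95 (SE 0.14), -5.41 (SE 0.2), -5.44 (SE 0.15) and -5.9 (SE 0.12). A phosphatase gene, OsPP2C39, fell by 5.48, in contrast to the rise of OsPP2C78 in the same family. The probe set of OsPP2C39 is shared and another of its probe sets did not give the same call.

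**Figure D2:**
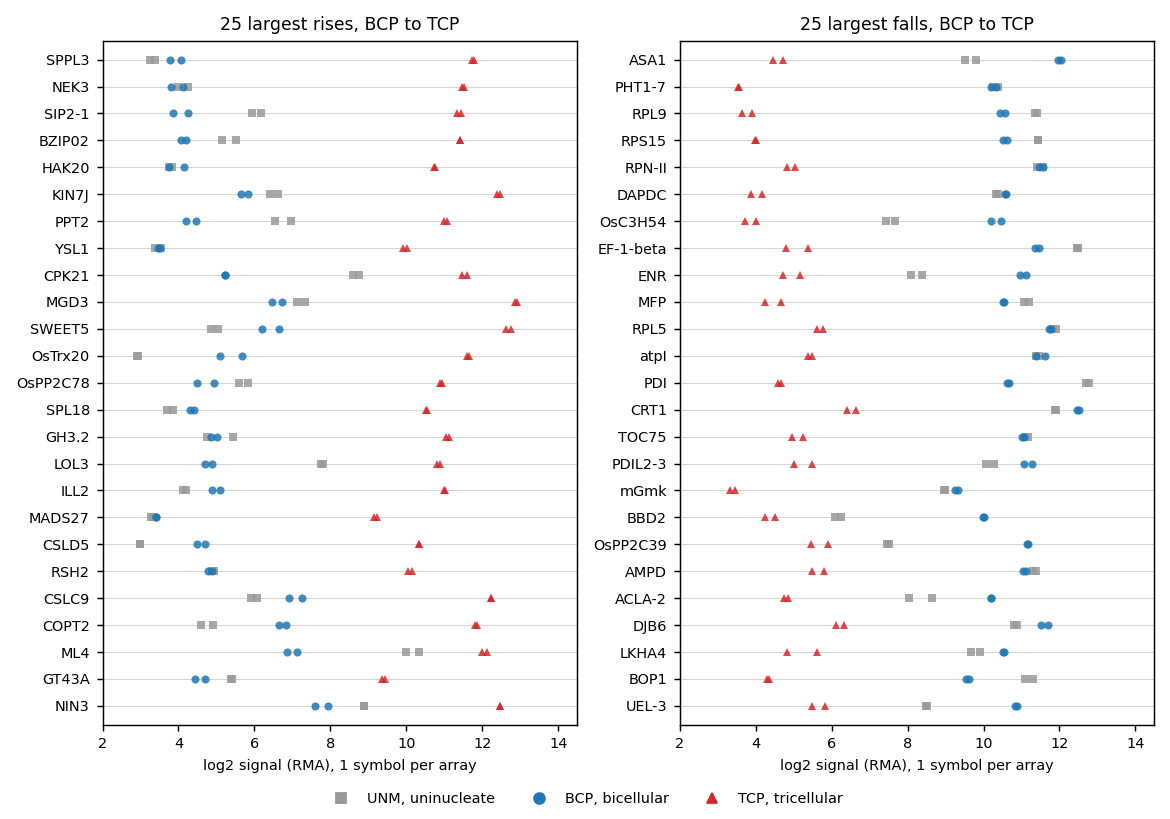
The 25 largest rises (left) and the 25 largest falls (right) from BCP to TCP among genes with a name, with the log2 signal on the x axis and 1 symbol per array (grey squares UNM, blue circles BCP, red triangles TCP). The genes were chosen for the size of their change and for arrays that do not overlap between BCP and TCP. The differences run from 4.69 to 7.83 on the left and from -5.2 to -7.42 on the right.

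The other named genes were grouped into 36 lists by name, which together hold 1343 genes. The share of a list's genes that rose or fell is read against the 8.52% and 28.6% of all genes. A gene under the reporters in BCP has little room to fall. Of all 17905 genes 9889 lay above them on both BCP arrays. Among these, 1888 fell to or under the reporters on both TCP arrays and 2617 fell above them on all 4 arrays. The 9889 included 23 of 24 ribosomal protein genes and 11 of 11 translation factor genes. For the proteasome they included 15 of 16, and for ER folding 20 of 23. They also included 15 of 17 genes of vesicle traffic, 11 of 11 of respiration and 23 of 29 kinases. The lists of protein synthesis stood far above the share of falls, with 87.5% of ribosomal protein genes and 90.9% of translation factor genes. Of calcium sensors and kinases 24.4% rose, with the same share of falls. No set test was made, and the counts describe these lists only.

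**Figure D3:**
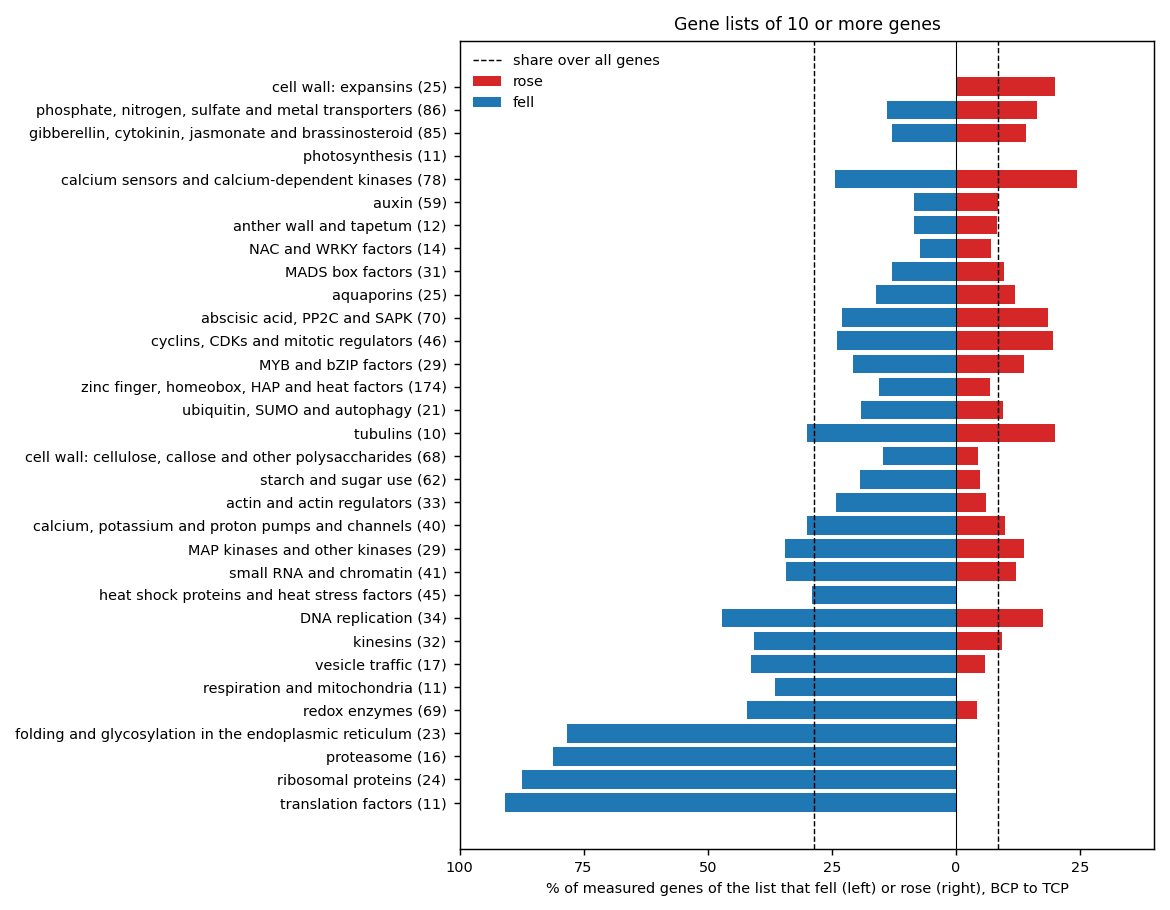
Share of the measured genes of each list of 10 or more genes that fell (blue, left) or rose (red, right) from BCP to TCP, in percent, with the number of genes in brackets. Dashed lines mark the shares over all genes, 28.6% for falls and 8.52% for rises. The 4 lists at the bottom, translation factors, ribosomal proteins, proteasome and ER folding, have between 78.3% and 90.9% of their genes falling and 0 rising. On the control scale falls outnumber rises in every list shown, as they do over all genes, with 12117 falls and 563 rises.

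The stage labels were first set against marker genes. Of the sperm and generative cell markers sought (among them GCS1, GEX and DUO1), the annotation names CenH3, which encodes the centromeric histone H3. CenH3 was at 7.53 and 7.31 in BCP and 6.83 and 6.68 in TCP, and at 6.97 and 7.0 on the UNM arrays. Its TCP arrays lay just under its BCP arrays, with a difference of -0.66 (SE 0.14), which is under the minimum of 1, so that it was not called. This value moved with the scaling, to -0.0694 after quantile normalisation and to -1.89 on the control scale, on which CenH3 fell. It does not mark sperm cells alone, and the labelled stage could not be checked with sperm markers. Of the families sought for the late vegetative cell, 5 of 9 actin-depolymerizing factors, 3 of 11 beta-expansins, 2 of 2 MST sugar transporters and 1 of 8 PHT1 phosphate transporters lay above the reporters on all 4 arrays of BCP and TCP. Of these genes 4, 1, 1 and 0 were also above them on both UNM arrays, so that the families as a whole do not mark the later stages. Over all their measured genes 2 actin-depolymerizing factors and 1 PHT1 transporter fell, and 2 beta-expansins rose. No profilin or RopGEF gene was matched by name. The examples that follow were chosen after their values had been seen. ADF-9, an actin-depolymerizing factor, was at 12.09 and 12.17 in BCP and 12.47 and 12.52 in TCP against 4.17 and 3.71 on the UNM arrays, and EXPB9, a pollen beta-expansin, at 12.87 and 12.92 in BCP and 13.13 and 12.95 in TCP against 4.56 and 3.91. Neither differed between BCP and TCP by the criteria used, with differences of 0.36 (SE 0.17) and 0.14 (SE 0.22).

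Markers of the anther wall and its inner layer, the tapetum, were near background at both stages. The mean level of the 12 measured markers was 4.39 and 4.51 in BCP and 4.53 and 4.5 in TCP, against 7.64 and 7.65 in UNM. Only 1 or 2 of the 12 lay above the reporters on any BCP or TCP array, against 10 on each UNM array. The lipid transfer protein gene C4 was at 4.38 and 4.25 in BCP and 4.42 and 4.63 in TCP, its relative C6 at 3.93 and 4.25 in BCP and 3.98 and 5.0 in TCP, and the cysteine protease gene CP1 at 4.26 and 4.6 in BCP and 4.52 and 4.5 in TCP. For these 3 the values lay under the reporters on all 4 arrays. MSP1, a receptor kinase of anther cell fate, was the 1 marker that rose, by 1.5 (SE 0.18) from 5.46 and 5.84 in BCP and 7.3 and 7.0 in TCP. GAMYB, a MYB factor of gibberellin response, was the 1 that fell, with -3.88 (SE 0.15), measured at 8.49 and 8.25 in BCP and 4.38 and 4.59 in TCP on a shared probe set. The other markers, CYP703A3, RAFTIN1, DTD, TDR, BHLH142, AP25 and PTC1, had differences between -0.07 and 0.79 and were not called. On the control scale 0 of the 12 markers rose, MSP1 included, and 6 fell. Of 11 photosynthesis genes 0 rose and 0 fell by limma, with 4 higher and 1 lower in TCP at an unadjusted p under 0.05. On the 3 other scalings 3, 0 and 0 rose, and on the control scale 6 fell. On the deposited scale 5 or 6 lay above the reporters on each BCP and TCP array.

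The formation of sperm cells needs a mitosis, and genes of division were mixed. Of 46 genes of cyclins, their kinases (CDKs) and mitotic regulators, 9 rose (19.6%) and 11 fell (23.9%), with a median difference of 0.07 against -0.06 over all genes. With the arrays set to the hybridization controls, 4 rose and 26 fell. The largest change in the list was that of NEK3, at 3.82 and 4.13 in BCP and 11.51 and 11.46 in TCP. It rose by 7.51 (SE 0.16) and lay under the reporters on the UNM and BCP arrays, so that this size is not exact. CYCD5-2, a D-type cyclin of cell cycle entry, was at 7.95 and 7.67 in BCP and 11.28 and 11.25 in TCP, and rose by 3.46 (SE 0.14), although another of its probe sets did not give the same call. The B-type cyclin gene CYCB2, which drives entry into mitosis, was measured in gene 4336670 at 9.21 and 9.25 in BCP and 6.43 and 6.71 in TCP. On the UNM arrays it was at 6.19 and 6.72, so that BCP was the highest of the 3 stages, and from there it fell by 2.66 (SE 0.2). CYCA2-1, an A-type cyclin, had the same order of stages, at 7.22 and 7.73 in UNM, 10.17 and 10.08 in BCP and 8.49 and 8.3 in TCP. CYCB2, CYCA2-1 and the mitotic cyclin CYCB1-1, which fell by 1.53, were chosen after their values had been seen. By the rule for named genes the largest falls in the list were CYCH-1, the cyclin of the CDK-activating kinase, with 9.79 and 9.82 in BCP and 5.76 and 5.76 in TCP, and CycT1;2, of a transcriptional cyclin family, which fell by 3.32 on a shared probe set.

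Of 34 genes of DNA replication measured, 16 fell (47.1%) and 6 rose (17.6%), against 28.6% and 8.52% of all genes, with a median difference of -0.70. On the control scale 24 fell and 1 rose, beside 12117 falls and 563 rises among all 17905 genes. FEN1A, a nuclease that trims Okazaki fragments, was at 8.73 and 8.76 in BCP and 3.32 and 4.38 in TCP, and TOP6B, a topoisomerase subunit, at 8.17 and 7.93 in BCP and 4.29 and 4.25 in TCP. PCNA, the sliding clamp of DNA polymerases, was at 6.63 and 6.63 in BCP and 3.77 and 3.75 in TCP, and at 9.83 and 9.66 on the UNM arrays. RFC4, of the complex that loads this clamp, was at 6.68 and 6.76 in BCP and 3.85 and 3.82 in TCP on a shared probe set. The TCP arrays of all 4 lay under the reporters, and the differences were -4.9 (SE 0.31), -3.78 (SE 0.13), -2.87 (SE 0.13) and -2.89 (SE 0.12). Another probe set of FEN1A did not give the same call. The clamp loader genes RFC1, RFC2, RFC3 and RFC5, chosen after their values had been seen, fell too, with differences between -2.78 and -1.97, so that 5 of 5 named clamp loader genes fell.

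In the deposited values the subunits of the MCM helicase, which unwinds DNA at origins, did not all follow the clamp and its loader. MCM4 was at 5.09 and 5.27 in BCP and 8.05 and 7.94 in TCP, with 7.6 and 7.76 on the UNM arrays. It rose by 2.81 (SE 0.14, adjusted p = 5.47e-06 by limma), which put both TCP arrays slightly above both UNM arrays in the deposited values. MCM3 was at 5.66 and 5.66 in BCP and 6.82 and 7.28 in TCP, and MCM5 at 4.81 and 4.64 in BCP and 5.93 and 6.03 in TCP. Both rose, by 1.39 (SE 0.18) and 1.26 (SE 0.14). MCM4 and MCM5 lay under the reporters on both BCP arrays, so that the sizes of their rises are not exact. On the control scale the differences of MCM3 and MCM5 were 0.16 and 0.03. MCM2 and MCM7 were not called, with -0.32 (SE 0.13) and 0.84 (SE 0.15), and OsMCM6 had -0.71 (SE 0.17). The control scale lowers each of these differences by 1.23, so that all 3 are negative there. MCM genes other than MCM4 were chosen after their values had been seen. ORC3, a subunit of the origin recognition complex, rose by 1.98 (SE 0.31) on a shared probe set, from 3.28 and 3.41 in BCP and 4.8 and 5.85 in TCP, with 3 of these 4 values under the reporters.

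Of 32 kinesins, motors that walk on microtubules and build the spindle and the cell plate, 13 fell (40.6%) and 3 rose (9.38%). The counts on the control scale were 25 that fell and 2 that rose. KIN14C was at 6.79 and 6.61 in BCP and 3.06 and 3.09 in TCP, and KIN14E at 7.46 and 7.61 in BCP and 4.1 and 4.43 in TCP. Both had been lower on the UNM arrays, at 5.03 and 4.67 and at 4.32 and 4.2, so that their signal was highest in BCP. They fell, the differences being -3.62 (SE 0.16) and -3.27 (SE 0.16). KIN7K went the other way, from 6.02 and 6.01 in BCP to 9.38 and 9.4 in TCP, as did KIN7J, which stood at 5.63 and 5.82 and then at 12.46 and 12.39. These rises were 3.38 (SE 0.12) and 6.7 (SE 0.14).

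Tubulins, the subunits of microtubules, were divided: of 10 genes 2 rose and 3 fell, and on the control scale 0 rose and 6 fell. TUB8 was at 9.31 and 9.35 in BCP and 10.76 and 10.57 in TCP, and TUB6 at 9.95 and 10.01 in BCP and 11.13 and 11.24 in TCP. TUB2 was at 7.91 and 7.73 in BCP and 4.84 and 5.42 in TCP. The rises were 1.33 (SE 0.13) and 1.2 (SE 0.13), of which that of TUB6 has the opposite sign on the control scale. The falls had differences of -2.69 (SE 0.2) for TUB2, -2.57 (SE 0.12) for TUB3 and -1.92 (SE 0.13) for TUB1, and no other probe set of TUB3 or TUB1 gave the same call.

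**Figure D4:**
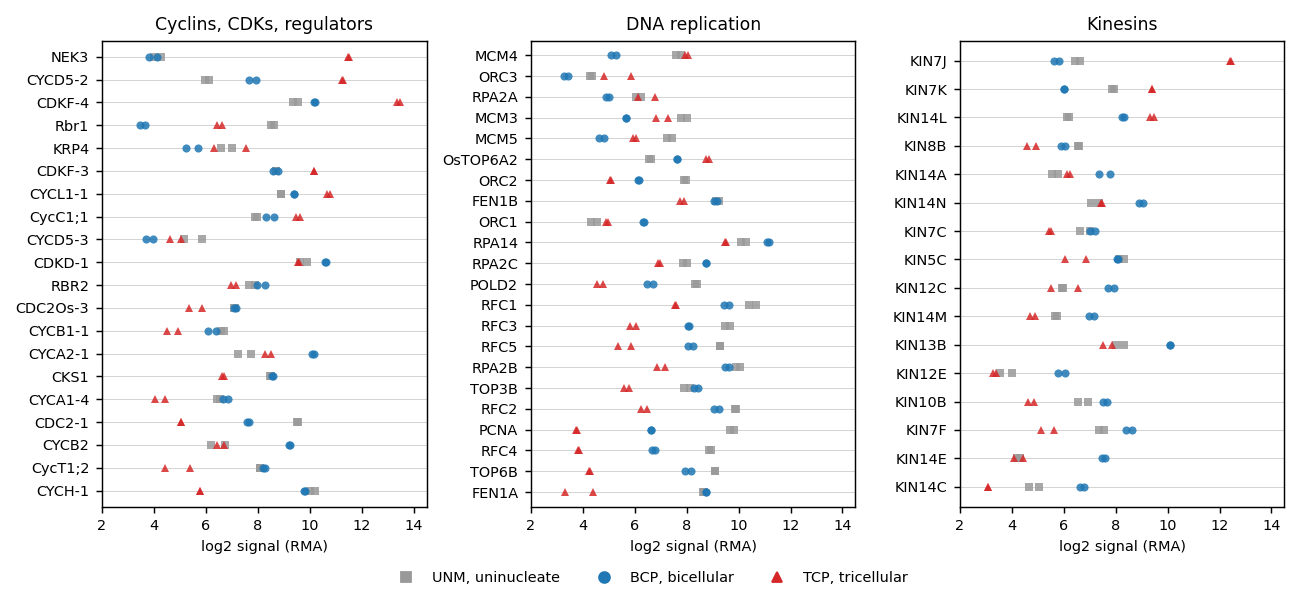
Log2 signal (x axis) of the called genes of cyclins, CDKs and mitotic regulators, of DNA replication and of kinesins, 1 symbol per array (grey squares UNM, blue circles BCP, red triangles TCP), ordered from the largest rise to the largest fall. In the middle panel 6 genes rose, MCM4 first with 2.81, and 16 fell, FEN1A last with -4.9. On the control scale 1 gene of that panel's list rises.

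Tip growth rests on actin and on small GTPases of the Rac/Rop family. Most actin genes and their regulators were not called: of 33 genes 2 rose, 8 fell and 23 were not called, and without TCP replicate 2, 5 rose. With the 3 other scalings 4, 5 and 1 rose, and on the control scale 1 rose and 22 fell. FH11, a formin that nucleates actin filaments, was at 3.66 and 3.74 in BCP and 8.42 and 8.33 in TCP and rose by 4.67 (SE 0.2). FH13, another formin, rose by 1.1 (SE 0.17) under the reporters on all arrays, on a shared probe set, with the opposite sign on the control scale and not called without BCP replicate 2 or without TCP replicate 1. ARP7 and ARP4, actin-related proteins of nuclear chromatin complexes, fell, the differences being -3.31 (SE 0.16) and -2.56 (SE 0.12). ARP7 was at 10.2 and 10.23 in BCP and 7.1 and 6.7 in TCP, on a shared probe set. Of the 7 Rac/Rop genes 0 rose and 0 fell by limma in the deposited values, with 2 higher and 2 lower in TCP at an unadjusted p under 0.05. On the control scale 0 of the 7 rose and 4 fell. RAC6, above the reporters on all 4 arrays, was at 13.18 and 13.12 in BCP and 12.53 and 12.47 in TCP with a difference of -0.65 (SE 0.16, adjusted p = 0.0175).

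Calcium sensors and the kinases that read them changed in both directions. Of 78 genes 19 rose (24.4%) and 19 fell (24.4%), against 8.52% and 28.6% of all genes, and the median difference was 0.08. On the control scale 11 rose and 45 fell. CIPK5, a kinase activated by CBL calcium sensors, was at 8.52 and 8.32 in BCP and 13.1 and 12.98 in TCP, with 4.01 and 3.68 on the UNM arrays. Its signal was thus lowest in UNM and highest in TCP, and it rose by 4.62 (SE 0.16) from BCP to TCP. CIPK30 and the calcium-dependent protein kinases CPK29 and CPK22, chosen after their values had been seen, had the same order of stages. CIPK30 was at 8.29 and 8.13 in BCP and 12.4 and 12.58 in TCP, CPK29 at 9.32 and 9.17 in BCP and 12.79 and 12.92 in TCP and CPK22 at 9.09 and 9.13 in BCP and 12.49 and 12.37 in TCP. Their rises were 4.28 (SE 0.15), 3.61 (SE 0.13) and 3.32 (SE 0.18).

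Other members of the same families fell. The sensor gene CBL3 was at 10.9 and 11.03 in BCP and 6.08 and 6.11 in TCP, and at 10.93 and 11.0 on the UNM arrays. CCAMK, a kinase that binds both calcium and calmodulin and is known from root symbiosis, was at 8.4 and 8.33 in BCP and 3.81 and 4.02 in TCP, though another of its probe sets did not give the same call. CPK8, chosen after its values had been seen, was at 7.75 and 7.63 in BCP and 3.53 and 3.36 in TCP. The differences were -4.86 (SE 0.12), -4.45 (SE 0.13) and -4.25 (SE 0.13), and CCAMK and CPK8 lay under the reporters on both TCP arrays. Members of the CPK, CIPK, CBL and CML families stood on both sides, as the plot of calcium genes shows.

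**Figure D5:**
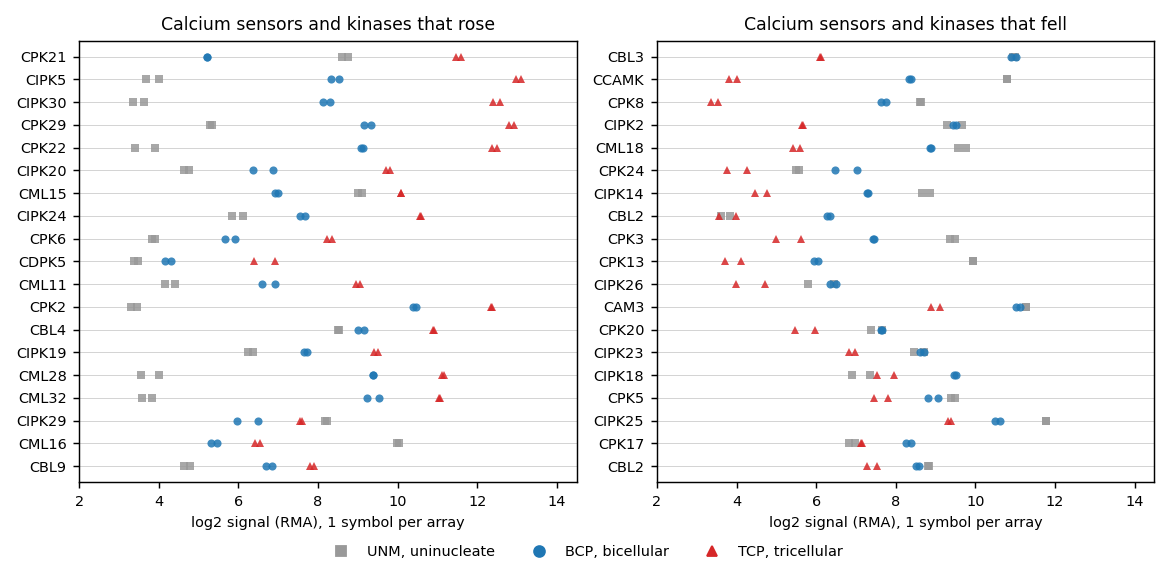
Log2 signal (x axis) of the 19 calcium sensors and calcium-dependent kinases that rose (left) and the 19 that fell (right) from BCP to TCP, 1 symbol per array (grey squares UNM, blue circles BCP, red triangles TCP). CPK21 heads the left panel with 6.32 and CBL3 the right with -4.86, and the name CBL2 is carried by 2 different genes. On the control scale 11 genes of the list rise.

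Of 40 genes of calcium, potassium and proton pumps and channels, 4 rose and 12 fell, near the shares of all genes. With the arrays set to the hybridization controls, 2 rose and 27 fell. The potassium transporter gene HAK20 was at 3.76 and 4.13 in BCP and 10.74 and 10.76 in TCP and rose by 6.81 (SE 0.16), and HAK18 at 6.09 and 5.8 in BCP and 8.73 and 8.7 in TCP, with 2.77 (SE 0.14). HAK7 of the same family and GLR3.1, a glutamate receptor-like channel, fell, the differences being -2.77 (SE 0.2) and -2.84 (SE 0.18), each with another probe set that did not give the same call. Of 25 aquaporin genes 3 rose and 4 fell, against 1 and 14 on the control scale. NIP1-1 was at 8.96 and 9.29 in BCP and 4.71 and 4.15 in TCP and fell by 4.69 (SE 0.21), whereas SIP2-1 stood at 3.86 and 4.26 in BCP and 11.34 and 11.43 in TCP.

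Vesicle traffic, which delivers wall material to the tip, had 17 measured genes, of which 7 fell (41.2%) and 1 rose. On the 3 other scalings 4, 5 and 9 fell, and on the control scale 14. The distance to the share of all genes, 28.6% in the deposited values, thus depends on the scaling. The coatomer genes cope1 and copz1, of the coat that forms vesicles at the Golgi, were at 10.56 and 10.48 in BCP and 6.16 and 6.28 in TCP and at 10.51 and 10.51 in BCP and 7.44 and 7.18 in TCP. They fell, the differences being -4.3 (SE 0.13) and -3.2 (SE 0.14). RIC2, a small GTPase of the Rab type, rose by 1.95 (SE 0.21) on a shared probe set, and none of its 3 other probe sets gave the same call. Of 6 genes of phospholipid signalling 0 rose by limma, and 0 were higher in TCP at an unadjusted p under 0.05. On the control scale 0 rose and 4 fell. The 2 that fell in the deposited values were PLD1, a phospholipase D, and pla2-I, a phospholipase A. Their differences were -1.48 (SE 0.32), on a shared probe set, and -1.91 (SE 0.14). Without BCP replicate 1, and also without BCP replicate 2, 1 of the 6 fell, since PLD1 was then not called.

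Expansins, which loosen cell walls, held rises and no fall, though only 7 of the 25 lay above the reporters on both BCP arrays. Of 25 genes 5 rose (20.0%) and 0 fell by limma, 3 rose without TCP replicate 2, and 5, 6 and 3 rose on the 3 other scalings. At an unadjusted p under 0.05 12 were higher in TCP and 0 lower. EXP32 was at 7.94 and 8.01 in BCP and 11.76 and 11.63 in TCP, and at 2.98 and 3.01 on the UNM arrays, and EXP26 at 9.62 and 9.32 in BCP and 11.23 and 11.22 in TCP, with 4.57 and 4.67 in UNM. Both were lowest in UNM and highest in TCP, and rose by 3.72 (SE 0.12) and 1.75 (SE 0.14) from BCP to TCP. EXPB17 rose by 1.25 (SE 0.13) and EXP6 by 1.13 (SE 0.24). Another probe set of EXPB17 did not give the same call, and EXP6 had the opposite sign on the control scale, by which 1 expansin rose and 8 fell. EXP6 was not called without BCP replicate 2 or without TCP replicate 2.

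Of 68 genes of cellulose, callose and other wall polysaccharides 3 rose and 10 fell, and on the control scale 2 rose and 49 fell. Besides CSLD5 and CSLC9, which rose, CESA1, a cellulose synthase of growing cells, was at 10.57 and 10.6 in BCP and 6.09 and 6.3 in TCP and fell by 4.39 (SE 0.13), while another of its probe sets did not give the same call. GLU2, of the endoglucanases, was at 8.75 and 8.77 in BCP and 5.09 and 4.78 in TCP and fell by 3.83 (SE 0.14).

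Genes of starch filling and sugar use were mostly not called. Of 62 genes 12 fell (19.4%) and 3 rose (4.84%), or 5 rose without TCP replicate 1. With the 3 other scalings 5, 5 and 3 rose, and on the control scale 46 fell and 3 rose. SS1, a starch synthase, was at 11.17 and 11.21 in BCP and 6.64 and 6.7 in TCP, with 6.12 and 6.33 on the UNM arrays. AGPS2, a subunit of the enzyme that makes ADP-glucose for starch, was at 11.39 and 11.45 in BCP and 8.57 and 8.53 in TCP on a shared probe set, with 5.72 and 5.64 in UNM, and was chosen after its values had been seen. Both peaked in BCP, and fell, the differences being -4.52 (SE 0.13) and -2.87 (SE 0.12). SUS4, a sucrose synthase, was at 8.88 and 8.83 in BCP and 4.9 and 4.75 in TCP and fell by 4.03 (SE 0.12). SWEET6A, chosen after its values had been seen, was at 10.29 and 10.56 in BCP and 6.48 and 6.33 in TCP, and fell by 4.02 (SE 0.15) in the family in which SWEET5 rose. Of 11 genes of respiration 4 fell (10 on the control scale) and 0 rose by limma, and 0 were higher in TCP at an unadjusted p under 0.05. AOX1, the alternative oxidase, was at 8.85 and 8.63 in BCP and 6.94 and 6.38 in TCP and fell by 2.08 (SE 0.21). The succinate dehydrogenase genes SDH1, SDH5 and SDH7 fell, with differences of -1.24, -1.15 and -1.25, and were above the reporters on all 4 arrays. SDH7 was not called after quantile normalisation, nor SDH5 after centring on the 75th percentile.

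Of 86 transporters of phosphate, nitrogen, sulfate and metals, 14 rose (16.3%) and 12 fell, and on the control scale 4 rose and 47 fell. YSL1, of the transporters of chelated metals, was at 3.53 and 3.47 in BCP and 10.03 and 9.91 in TCP, and PPT2, a plastid phosphoenolpyruvate translocator, at 4.2 and 4.46 in BCP and 10.99 and 11.06 in TCP. Nramp1, a metal transporter, was at 11.18 and 11.0 in BCP and 7.41 and 7.04 in TCP, and the phosphate transporter gene PHT1-7 at 10.2 and 10.33 in BCP and 3.53 and 3.55 in TCP. The rises were 6.47 and 6.7 and the falls -3.86 and -6.72, with SEs between 0.13 and 0.18. Another probe set of PHT1-7 did not give the same call.

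Genes of protein synthesis mostly fell. Of 24 ribosomal protein genes 21 fell (87.5%) and 0 rose, with a median difference of -3.22. Of 11 translation factor genes 10 fell (90.9%) and 0 rose, with a median of -3.19. At an unadjusted p under 0.05, 1 ribosomal protein gene and 0 translation factor genes were higher in TCP by limma. Ribosomal RNA was higher in TCP in the deposited values, with the 18S probe set at 9.56 in BCP and 10.78 in TCP, and the 25S probe set at 9.76 and 11.26. Their differences on the control scale were -0.0104 and 0.26. The 3' minus middle signal of GAPDH, a sign of RNA quality, was 1.01 in BCP and 1.55 in TCP, and that of actin 1.87 and 1.91. The part of RNA quality in these results was not tested.

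The fall reached both ribosomal subunits. RPS7, of the small subunit, was at 11.41 and 11.4 in BCP and 6.37 and 6.57 in TCP, and RPL5, of the large subunit, at 11.74 and 11.79 in BCP and 5.6 and 5.78 in TCP. Their UNM arrays were at 11.95 and 11.93 and at 11.9 and 11.82, so that both earlier stages were alike beside TCP. They fell, the differences being -4.93 (SE 0.13) and -6.07 (SE 0.13). The smallest of the 21 falls had a difference of -1.25 (SE 0.12), that of RPS27AB, a ribosomal protein made as a fusion with ubiquitin, which was at 11.44 and 11.48 in BCP and 10.19 and 10.23 in TCP.

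Among the translation factors EF-1-beta, an exchange factor of the cytosolic elongation step, was at 11.36 and 11.47 in BCP and 4.8 and 5.38 in TCP. Factors of organelle ribosomes fell as well: EF-Gmt, of mitochondria, was at 10.86 and 10.73 in BCP and 5.84 and 6.36 in TCP, and EF-Ts at 9.45 and 9.28 in BCP and 4.56 and 5.12 in TCP. EF-1-beta lay under the reporters on both TCP arrays, and EF-Gmt above them. The differences were -6.33 (SE 0.2), -4.69 (SE 0.19) and -4.52 (SE 0.2), and another probe set of EF-Ts did not give the same call.

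The proteasome, which degrades tagged proteins, had 16 measured subunit genes, of which 13 fell (81.2%) and 0 rose by limma, with a median of -1.47 and 0 higher in TCP at an unadjusted p under 0.05. The subunits of its core were led by PAE1, at 11.18 and 11.26 in BCP and 7.93 and 7.98 in TCP, and PAD1, at 9.31 and 9.33 in BCP and 6.75 and 6.49 in TCP. Those of its regulatory lid were led by RPN7, at 10.89 and 10.96 in BCP and 7.84 and 7.98 in TCP. The differences were -3.27 (SE 0.12), -2.7 (SE 0.14) and -3.01 (SE 0.13), and these genes stayed above the reporters in TCP. This list was trimmed of ribophorins after values had been seen. Of 21 genes of ubiquitin, SUMO and autophagy 4 fell and 2 rose, or 1 without TCP replicate 2, when APG12 was not called. On the 3 other scalings 2, 2 and 0 rose, and on the control scale 0 rose and 16 fell. RUB2, a ubiquitin-like modifier, was at 10.36 and 10.51 in BCP and 6.05 and 7.04 in TCP and fell by 3.89 (SE 0.29), and the autophagy gene APG5 fell by 1.9 (SE 0.21). The ligase gene PUB4 rose by 1.13 and the autophagy gene APG12, on a shared probe set, by 1.05, both with the opposite sign on the control scale.

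Of 23 genes of folding and glycosylation in the ER, 18 fell (78.3%) and 0 rose by limma, with a median of -2.84 and 0 higher in TCP at an unadjusted p under 0.05. RPN-II, of the complex that adds sugar chains to new proteins, was at 11.46 and 11.56 in BCP and 4.83 and 5.04 in TCP, and fell by 6.58 (SE 0.14). Both TCP values lay under the reporters, and the gene had been at 11.57 and 11.41 on the UNM arrays. BIP1, the main ER chaperone of the Hsp70 type, was chosen after its values had been seen and was at 12.72 and 12.87 in BCP and 8.37 and 8.6 in TCP, and fell by 4.31 (SE 0.14), which left it above the reporters.

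Of 45 heat shock proteins and heat stress factors, 13 fell (28.9%), near the share of all genes, and 0 rose by limma, with 9 higher in TCP at an unadjusted p under 0.05. Without BCP replicate 1, and also without TCP replicate 1, 1 rose. With the 3 other scalings 0, 2 and 0 rose. The counts on the control scale were 29 that fell and 0 that rose. HSP81-3 and HSP81-2, chaperones of the Hsp90 type, were at 13.27 and 13.28 in BCP and 8.54 and 8.8 in TCP and at 11.78 and 11.76 in BCP and 7.77 and 7.63 in TCP. They fell, the differences being -4.61 (SE 0.14) and -4.07 (SE 0.13), with HSP81-3 on a shared probe set and with 2 of its 4 other probe sets giving the same call. The heat stress factor genes HSFA2D and HSF1 fell, with differences of -3.11 and -3.09, each with another probe set that did not give the same call.

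Mature pollen of many species is dried, and late embryogenesis abundant (LEA) proteins and dehydrins protect drying cells. Of 8 such genes 1 rose and 1 fell. Dhn1, a dehydrin, was at 6.67 and 6.67 in BCP and 8.52 and 8.04 in TCP and rose by 1.61 (SE 0.19), though another probe set did not give the same call, and RAB16D fell by 1.32 (SE 0.2). After quantile normalisation RAB16D was not called, and on the control scale 0 of the 8 rose and 4 fell. Of 69 redox enzymes 29 fell (42.0%) and 3 rose (4.35%), or 5 rose without TCP replicate 2, with a median of -0.64. By the control scale 52 fell and 1 rose. The ascorbate peroxidase genes APX4 and APX6, which remove hydrogen peroxide, were at 8.8 and 9.09 in BCP and 5.02 and 5.17 in TCP and at 9.55 and 9.54 in BCP and 5.68 and 6.31 in TCP, and fell, the differences being -3.85 (SE 0.15) and -3.55 (SE 0.21). The glutaredoxin gene GRXC8 fell by 3.96 (SE 0.17), while GRXS2 rose by 1.95 (SE 0.18) on a shared probe set.

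Of 41 genes of small RNA and chromatin, 14 fell (34.1%) and 5 rose (12.2%). On the 3 other scalings 5, 5 and 3 rose. On the control scale 28 fell and 0 rose. EZ1, a Polycomb histone methyltransferase, was at 9.8 and 9.73 in BCP and 5.34 and 5.17 in TCP, and AGO4B, an Argonaute of DNA methylation guided by small RNA, at 9.39 and 9.27 in BCP and 6.14 and 5.4 in TCP on a shared probe set. They fell, the differences being -4.51 (SE 0.13) and -3.56 (SE 0.23). AGO1A, of the Argonautes that act with microRNAs, was at 9.89 and 9.99 in BCP and 11.87 and 11.92 in TCP, and MET1 (gene 4342575), the methyltransferase that maintains CG methylation, at 7.53 and 7.57 in BCP and 8.96 and 9.14 in TCP. AGO1A and MET1 rose, by 1.95 (SE 0.12) and 1.5 (SE 0.13), and on the control scale neither was called.

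Transcription factor lists held mostly genes that were not called. Of 174 zinc finger, homeobox, HAP and related factors 12 rose (6.90%) and 27 fell (15.5%), of 31 MADS box factors 3 and 4, of 29 MYB and bZIP factors 4 and 6, and of 14 NAC and WRKY factors 1 and 1. In this order 62, 8, 15 and 2 genes lay above the reporters on both BCP arrays, against 9889 of all 17905 genes. A gene under the reporters in BCP has little room to fall. With the 3 other scalings 15, 19 and 7 of the first list rose, 5, 5 and 1 MADS box factors, and 5, 5 and 2 MYB and bZIP factors, and 1, 1 and 2 NAC and WRKY factors fell. These lists had on the control scale 5, 1, 1 and 0 rises and 116, 22, 18 and 5 falls. Without BCP replicate 2, 2 MYB and bZIP factors and 5 MADS box factors rose. In the NAC and WRKY list 0 rose and 2 fell without that array, and likewise without TCP replicate 1, and 2 rose without TCP replicate 2. BZIP02 was at 4.06 and 4.21 in BCP and 11.42 and 11.41 in TCP and rose by 7.28 (SE 0.16). TGA2.3 and BZIP39, of the same class, fell, the differences being -3.02 (SE 0.13) and -3.05 (SE 0.15), the last on a shared probe set. The CCCH zinc finger gene OsC3H11 was at 9.88 and 9.95 in BCP and 5.7 and 5.6 in TCP, and NAC067 at 7.79 and 7.76 in BCP and 4.1 and 4.57 in TCP. Both fell, the differences being -4.27 (SE 0.12) and -3.44 (SE 0.17). The MADS box gene MADS56, known in rice from flowering time, fell by 3.38 (SE 0.2) to 4.67 and 4.78 on the TCP arrays. TGAL4, wrky38 and MADS16 rose by 1.18, 1.2 and 1.14. TGAL4 and wrky38 were not called without BCP replicate 2, nor wrky38 without TCP replicate 1, and these 3 genes have the opposite sign on the control scale. The values of wrky38 lay under the reporters on all 4 arrays.

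The hormone lists had shares of falls below the 28.6% of all genes. Above the reporters on both BCP arrays were 16 of 59 auxin genes, 41 of 70 in the abscisic acid list and 33 of 85 in the last list. Of all 17905 genes 9889 were, and a gene under the reporters in BCP has little room to fall. Of 59 auxin genes 5 rose and 5 fell. Without TCP replicate 2, 10 rose, on the 3 other scalings 6, 9 and 3 rose and 3, 5 and 5 fell, and on the control scale 2 rose and 39 fell. IAA19, of the repressors of auxin response, was at 5.61 and 5.74 in BCP and 8.02 and 8.32 in TCP and rose by 2.49 (SE 0.15), whereas the auxin response factor gene ARF22 was at 8.42 and 8.41 in BCP and 5.92 and 5.48 in TCP and fell by 2.72 (SE 0.17). Of 70 genes of abscisic acid, PP2C phosphatases and SAPK kinases 13 rose (18.6%) and 16 fell (22.9%), against 4 and 36 on the control scale. On the 3 other scalings 16, 16 and 8 rose. OsPP2C64 was at 4.28 and 4.8 in BCP and 8.31 and 8.52 in TCP, with 8.41 and 8.39 on the UNM arrays. In the deposited values TCP was thus again near UNM after a rise of 3.87 (SE 0.19). OsPP2C52 was at 10.65 and 10.6 in BCP and 6.48 and 6.77 in TCP and fell by 4.0 (SE 0.15).

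Of 85 genes of gibberellin, cytokinin, jasmonate and brassinosteroid 12 rose (14.1%) and 11 fell (12.9%), and on the control scale 2 rose and 45 fell. COI1, a subunit of the jasmonate receptor, was at 7.7 and 7.52 in BCP and 11.57 and 11.57 in TCP, and JAZ6, of the repressors that this receptor removes, at 7.19 and 7.34 in BCP and 10.88 and 10.87 in TCP on a shared probe set. They rose by 3.96 (SE 0.13) and 3.61 (SE 0.13). LOGL1, of the enzymes that activate cytokinin, was at 11.56 and 11.47 in BCP and 8.13 and 8.15 in TCP on a shared probe set, and RR24, of the cytokinin response regulators, at 8.61 and 8.55 in BCP and 5.23 and 5.67 in TCP. These fell, the differences being -3.38 (SE 0.12) and -3.13 (SE 0.3).

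Of 29 MAP kinases and other kinases 4 rose and 10 fell (34.5%), and on the control scale 1 rose and 21 fell. MPK10 was at 7.88 and 7.9 in BCP and 11.34 and 11.28 in TCP and rose by 3.42 (SE 0.17), and MPK4 rose by 2.0 (SE 0.14), both on shared probe sets. OSK3, of the SnRK1 kinases of energy shortage, was at 7.43 and 7.46 in BCP and 4.07 and 4.15 in TCP and fell by 3.34 (SE 0.12) on a shared probe set, with another that did not give the same call. GSK4, of the kinases that act in brassinosteroid signalling, was at 9.05 and 9.03 in BCP and 6.27 and 6.5 in TCP and fell by 2.65 (SE 0.13).

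Of the 168 genes picked by the rule for named genes 157 were called. A second or further probe set was measured for 30 of these genes. In 5 every other probe set gave the same call, in 3 some but not all, in 22 none, and in 0 did 1 give the opposite call. The probe sets of 37 of the 157 are shared by several transcripts, so that their signal may come from more than 1 gene. Among the named genes AGO1A, Dhn1, EXP26, EXPB17, GRXS2, MET1, MPK4, MSP1, ORC3, RIC2, TIP2-1 and TUB8 kept the sign of their rise on the control scale but were not called, and after centring on the median APG12, EXP6, FH13, MADS16 and PUB4 were not called.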

How the data were processed

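RNA of 6 samples was measured on Affymetrix arrays with biotin-labelled cRNA, per the labels' protocols. RMA was the authors' method for the deposited log2 values, per the submitters' processing notes, and each probe set has 1 value per array. Its version is not given in the sources used here, nor the set of arrays it was run on. No further normalisation was applied. Of 57381 probe sets, 123 Affymetrix control and 64 reporter probe sets were left out of the tests and 57194 were tested.

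The fit of the stages used limma 3.58.1 in R 4.3.3 with lmFit and eBayes, with stage as the only factor in all 6 arrays, which left 3 residual degrees of freedom. The contrast was TCP minus BCP. Calls needed a Benjamini-Hochberg adjusted p under 0.05 and a difference of at least 1. The fit was tested on simulated data with changes of known size, independent noise and no shift between arrays. That test therefore does not bear on the scaling between arrays. What the p-values reflect is the spread between these samples. The number of arrays limits the precision.

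A platform annotation paired 22531 probe sets with genes, 22436 with 1 gene and 95 with several. A gene was represented by the probe set with the highest mean over all 6 arrays, and 2446 of 17905 genes had a name other than a locus or clone number. Names came from the RefSeq table of the assembly ASM3414082v1, of which no coordinates were used. Because its symbols are nearly all locus numbers, the lists were matched to all names including synonyms, where the planned matching used synonyms in the lists of sperm cell and anther wall genes alone. Genes that only share letters with a list were left out, and ribophorins, GATA factors, 2 shikimate kinases and a carbamoyl phosphate synthase were left out after values had been seen. The members, lists and tests were chosen with earlier results of these data known.

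Named genes are the 25 largest rises and falls whose arrays do not overlap between stages, up to 4 called members with the largest change per list, up to 2 members called against the direction of most of a list, and all sperm and anther wall members. The alternatives were a repeated quantile normalisation, centring on the median or the 75th percentile, scaling by 21 hybridization controls, leaving out dim or shared probe sets, a prior with an intensity trend or a robust one, a minimum difference of 2 or none, another choice of probe set per gene, a replicate block, only the 4 arrays compared, and leaving out each array. No sequences were analysed here.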

Additional observations from a re-analysis of the deposited data

How the results depend on the processing

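The counts of rises and falls depended most on the scaling between arrays. Against 3400 probe sets that rose and 7593 that fell, 5521 rose and 6587 fell after a repeated quantile normalisation, 5488 and 6744 after centring on the 75th percentile, and 921 and 33406 on the scale of the hybridization controls, on which 563 genes rose and 12117 fell. Without a minimum difference there were 11436 rises against 10331 falls of probe sets, a share of rises of 52.5%. The excess of falls over probe sets was thus absent in that setting. Over genes falls still outnumbered rises there, with 6719 against 3307. With a minimum of 2, 1084 probe sets rose and 3934 fell, and 645 genes rose and 2820 fell. Leaving out 1 array gave 3374 to 3953 rises and 7492 to 7691 falls of probe sets, and 1515 to 1650 rises and 5045 to 5183 falls of genes. The 2 fits without a UNM array equal the fit of the 4 arrays compared, since a lone array adds no estimate of spread, and in a stage left with 1 array that array is assumed to vary like the others. Centring on the median, leaving out dim or shared probe sets, the trend, the robust prior and the other choice of probe set kept all these counts within 1.5 times.

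The replicate numbers did not pair the samples. Deviations of same-numbered arrays correlated at 0.01 between BCP and TCP, -0.05 between UNM and BCP and -0.07 between UNM and TCP. With the replicate block 3401 probe sets rose and 7594 fell, and 1524 genes rose and 5120 fell. No call of a named gene changed in that fit.

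Over the 168 named genes, 2889 of 2983 alternative values kept direction and side of the threshold, 63 lost the call and 5 gained one. The sign changed in 26, with 17 of them on the scale of the hybridization controls, and the cause was not tested beyond the shift of 1.23 in those controls. On that scale CYP703A3 had -1.13, RAFTIN1 -0.64, DTD -0.80, TDR -0.80, C6 -0.83, CP1 -1.15, C4 -1.02, AP25 -1.04, PTC1 -0.44, TUB6 -0.030, FH13 -0.13, EXP6 -0.10, PUB4 -0.10, APG12 -0.18, TGAL4 -0.045, wrky38 -0.032 and MADS16 -0.094. The other sign changes were of tapetum markers whose main differences were at most 0.40 in size. These markers lay under the reporters on the BCP and TCP arrays, except AP25, which was at 5.95 and 4.56 in TCP. They were CP1 with -0.075 after quantile normalisation and -0.068 after centring on the median, and from -0.092 (without BCP replicate 1) to 0.25 with 1 array left out. They were also CYP703A3 with -0.053 after centring on the median, and BHLH142 with 0.12 after centring on the 75th percentile and from -0.23 to 0.085 (without TCP replicate 1) with 1 array left out. With 1 array left out AP25 ran from -0.51 (without TCP replicate 1) to 0.89, and C6 from -0.110 (without TCP replicate 2) to 0.91. The medians of 18 of 36 lists changed sign under the hybridization controls and of 12 after centring on the median.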
